A study of Mus musculus with 4 samples.

Results

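Chromatin remodellers of the SNF2 family are ATPases that slide, evict or exchange nucleosomes, and most of them work inside large complexes that recognise particular histone marks or DNA. The 10 genes described here, of 25587 listed reference genes, are Hells, Smarca2, Smarca4, Smarca5, Smarcb1, Chd1, Chd4, Chd9, Ino80 and Atrx. They were taken by name from the table of RNA-Seq values, and each name matched a single row. Of the 10 genes, 9 encode an ATPase. Smarcb1 does not, because it encodes a core subunit of the SWI/SNF (BAF) complexes that SMARCA2 or SMARCA4 drive. RNA was sequenced from 4 pools of oocytes of wild-type C57BL/6Babr mice aged 5 to 20 days, all of them depleted of ribosomal RNA, with 1 library per stage. The stages were non-growing oocytes (NGOs), growing oocytes of younger and older juvenile mice (GO1 and GO2) and fully grown oocytes at the germinal vesicle stage (FGOs). Libraries of NGOs and FGOs were made with the dUTP protocol and those of GO1 and GO2 with the ScriptSeq kit. Log2 changes and calls were therefore taken only between stages that shared a protocol (NGOs and FGOs, GO1 and GO2), because stage and protocol cannot be told apart across any other pair. Levels, spans, shares and profiles are described over all 4 libraries, and between protocols they are not differences of stage alone. With 1 library per stage there was no replicate check and no test between stages, and all intervals given are 95 % intervals for counting error only.

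During growth the oocyte transcribes large amounts of maternal RNA and gains DNA methylation while arrested in meiosis, and at the end of growth transcription ceases. In this tissue SMARCA4 is known as a maternal factor needed when the embryonic genome is activated, and ATRX as a protein of pericentric heterochromatin that chromosome segregation in the oocyte requires. HELLS (also called LSH) is known for its part in DNA methylation of repeats. The values are RPKM, that is reads per kilobase of exon and scaled to the size of the library. They are relative to the RNA in each library, so fewer copies of a transcript per oocyte and more RNA of other genes cannot be told apart.

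The feature that all of the ATPases share is the Walker A motif, the loop that binds the phosphates of ATP. The 30 bases of the longest coding transcript (GENCODE M21, GRCm38) that encode this loop make the family visible at the level of the RNA counted, and are shown with the codons of its glycine, lysine and threonine in capitals. All are written 5′ to 3′ along the mRNA and lie in coding exons.
Smarca2, chr19:26676691-26676720, plus strand: gctgatgaaatggggctaGGCAAGACCatc
Smarca4, chr9:21660765-21660794, plus strand: gctgatgagatggggctgGGGAAGACCatc
Hells, chr19:38945424-38945453, plus strand: gcagatgaaatgggtttgGGAAAGACTgtt
Smarca5, chr8:80727778-80728484, minus strand, split by an intron: gcagatgaaatgggtttgGGAAAGACActt
Chd1, chr17:15735647-15735676, plus strand: gctgatgaaatgggccttGGGAAAACAata
Chd4, chr6:125107594-125107623, plus strand: gctgatgagatgggccttGGGAAAACTgtg
Chd9, chr8:90989446-90989475, plus strand: gcagatgaaatgggtcttGGCAAAACCatt
Ino80, chr2:119441646-119441675, minus strand: gctgatgaaatgggtcttGGTAAAACTgta
Atrx, chrX:105846689-105846718, minus strand: gcccactgcatgggccttGGTAAGACCctc

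No stretch encoding this loop was found in the Smarcb1 transcript. Hells and Smarca5 shared 28 of the 30 bases, Smarca2 and Smarca4 shared 27, and Hells and Atrx shared 17, the fewest of any pair. The longest run of bases common to the Smarca2 and Smarca4 transcripts was 20, and for 8 of the 10 genes no window of 100 bases occurred in a transcript of another gene. The exceptions were Smarca5, of whose 6014 windows 1303 (21.7 %) also occur in other annotated loci, among them the pseudogene Smarca5-ps, and Chd9 with 13 of 11909 windows (0.109 %). Reads of Smarca5 could have been split with these copies, and its level is uncertain for that reason. Exons of Smarca2 and Chd9 overlap an exon of a gene on the other strand, by 40 bases (4931403E22Rik) and 196 bases (Gm45641), and exons of Chd4, Smarca4 and Smarca5 overlap a gene on the same strand (Mir7045, Gm27373 and Gm45872).

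The totals by which the deposited RPKM were divided ranged from 110595206 for NGOs to 241385711 for GO2. These are totals in the unit of the recovered counts and not numbers of sequenced reads. They exceed the numbers of read pairs sequenced, so the counts are not independent fragments. All intervals are therefore too narrow, and those that matter were also computed with 4 counts per fragment, an assumption made after seeing the data. Oocyte markers were read in all libraries, with a summed RPKM of 4455 to 6774 over 10 genes such as Zp2 and Gdf9, all 10 of them with at least 3 counts in each library. Markers of other ovarian cells added up to far less. The 8 granulosa cell markers summed to 6.14 (NGO), 11.9 (GO1), 16.4 (GO2) and 18.9 (FGO), with Nr5a2 the highest in every library (3.62 to 11.4) and 7 or 8 of the 8 above the floor of 3 counts. The 7 markers of stroma and theca summed to 5.52 in NGOs and 0.176 to 0.263 in the other libraries, with 5 or 6 of the 7 at 3 counts or more. Lum was listed at 0 in GO1, GO2 and FGOs and Cyp17a1 in FGOs. The 4 blood markers in the table summed to 1.55 in NGOs and 0.342 to 0.595 in the others, with 1 to 3 of them at 3 counts or more, and Hba-a2 was listed at 0 in every library. The part of these other cells in the differences below was not tested.

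All 10 genes were read well above the floor, with at least 2513 counts in every library. In each library all 10 lay above the median RPKM of the genes with at least 3 counts, which was 2.09 (NGO), 1.55 (GO1), 1.29 (GO2) and 1.96 (FGO). The lowest percentile held by any of them was 53.3 (NGO), 62.9 (GO1), 65.9 (GO2) and 54.5 (FGO). In GO1 and GO2 this was Smarcb1, which lay at 88 and 89.6 when its longest coding transcript was used as length. The genes outside the 10 kept their deposited RPKM in that ranking, so the lengths on its 2 sides are unlike. Together the 10 genes summed to an RPKM of 122 (NGO), 198 (GO1), 173 (GO2) and 126 (FGO).

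**Figure D1:**
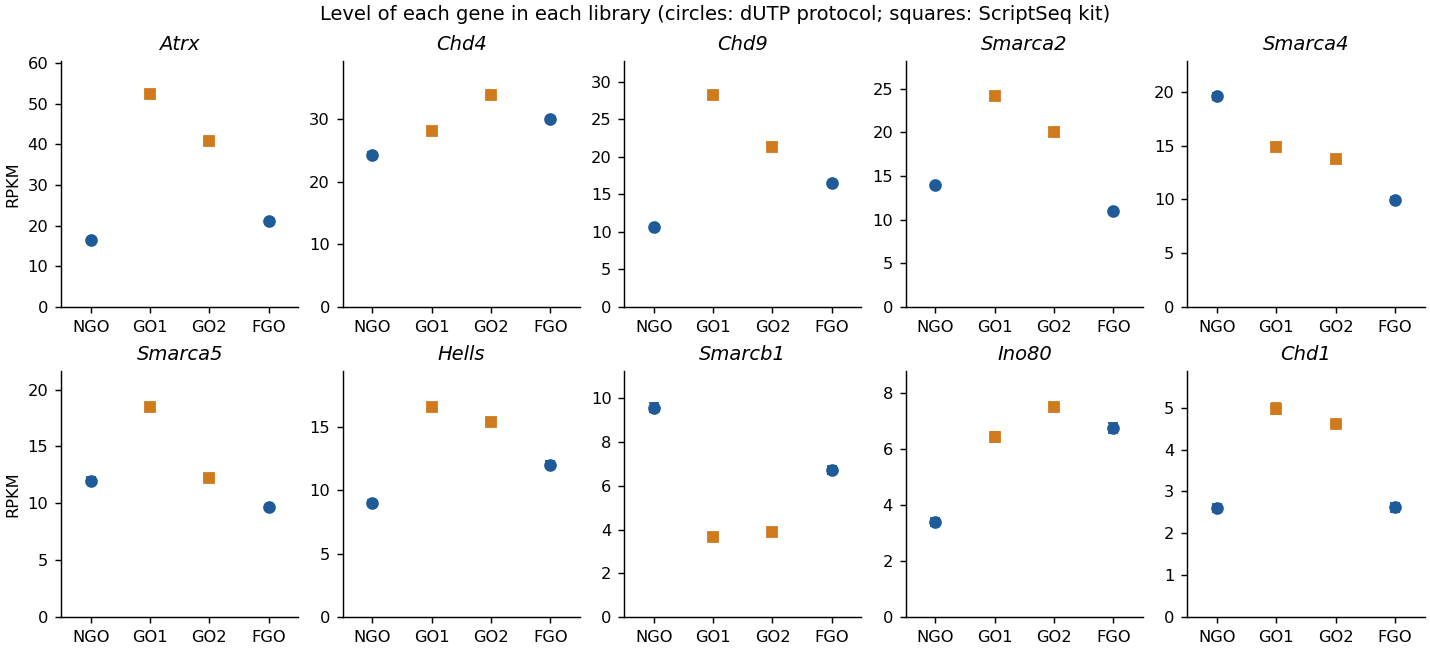
RPKM (y axis, linear from 0) of each of the 10 genes in the 4 libraries (x axis), with dUTP libraries as blue circles, ScriptSeq libraries as orange squares, and bars for the 95 % Poisson interval of the count, mostly hidden by the points. Atrx, Chd9, Smarca2, Smarca5, Hells and Chd1 were higher in both ScriptSeq libraries than in both dUTP libraries, and Smarcb1 was lower in both.

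The order of the genes differed between libraries. Chd4, the ATPase of the NuRD deacetylase complex, was highest in NGOs (24.3) and in FGOs (29.9), whereas Atrx was highest in GO1 (52.3) and GO2 (40.7). Atrx made up 13.6 % (NGO), 26.4 % (GO1), 23.5 % (GO2) and 16.8 % (FGO) of the summed RPKM of the 10 genes. For Chd4 the share was 20.0 %, 14.2 %, 19.5 % and 23.6 %. Chd1 was lowest in NGOs (2.61) and FGOs (2.62) and Smarcb1 in GO1 (3.68) and GO2 (3.88). The place of Smarcb1 depends on the length used. By the longest coding transcripts Chd1 was lowest in GO1 (5.48) and GO2 (5.08) as well, with Smarcb1 at 17.6 and 18.5. Smarcb1 (45.7) and not Chd4 (29.1) was then highest in NGOs. Neighbours in the order by deposited RPKM had overlapping counting intervals in 3 cases. These were Chd9 and Chd4 in GO1, and in FGOs Smarca4 with Smarca5 and Ino80 with Smarcb1. With 4 counts per fragment Smarcb1 and Hells in NGOs also overlapped.

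Positions of the genes are those of GRCm38 (GENCODE M21). In the levels by library given from here on, stage and protocol cannot be told apart between a dUTP and a ScriptSeq library. Among the SWI/SNF ATPases, Smarca4 (chromosome 9 from 21616169 to 21704230, plus strand), which encodes BRG1, had its highest level in NGOs. Its RPKM was 19.6 (NGO, 19.3 to 19.9), 14.9 (GO1, 14.7 to 15.2), 13.8 (GO2, 13.6 to 14.0) and 9.96 (FGO, 9.74 to 10.2). It was the only one of the 10 genes with a lower value at each later stage. The steps from NGOs to GO1 and from GO2 to FGOs also cross the change of protocol. Smarca2 (chromosome 19 from 26605115 to 26778321, plus strand), which encodes the alternative ATPase BRM, had its highest value in GO1 instead. The values were 14.0 (NGO, 13.7 to 14.2), 24.2 (GO1, 23.9 to 24.5), 20.1 (GO2, 19.9 to 20.3) and 11 (FGO, 10.8 to 11.2). Smarcb1 (chromosome 10 from 75896769 to 75921617, minus strand), whose product is shared by BAF complexes with either ATPase, was lowest in the growing oocytes, with 9.57 (NGO, 9.37 to 9.78), 3.68 (GO1, 3.57 to 3.80), 3.88 (GO2, 3.79 to 3.97) and 6.73 (FGO, 6.56 to 6.89). The level of Smarcb1 depends on the length it was divided by. That length was 7930 bases, the union of all annotated exons, whereas its longest coding transcript has 1660 bases. Divided by the coding transcript, the same counts gave 45.7 (NGO), 17.6 (GO1), 18.5 (GO2) and 32.1 (FGO), which placed Smarcb1 at the top of the 10 genes in NGOs by this length. In GO1 and GO2 it then lay above Smarca4 (15.2 and 14), Ino80 (6.86 and 8.01) and Chd1 (5.48 and 5.08). For the other 9 genes the length used was 0.963 to 1.48 times that of the longest coding transcript.

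Smarca5 (chromosome 8 from 80698507 to 80739497, minus strand) encodes SNF2H, the ATPase of ISWI complexes, which space nucleosomes. Its RPKM was 12.0 (NGO, 11.8 to 12.3), 18.5 (GO1, 18.2 to 18.8), 12.2 (GO2, 12.1 to 12.4) and 9.65 (FGO, 9.46 to 9.86). GO1 thus held the highest value, and the NGO and GO2 intervals overlap.

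The 3 members of the CHD family, whose chromodomains read histones or DNA, had levels far apart. Chd4 (chromosome 6 from 125095981 to 125130591, plus strand) varied least of the 10 genes, with 24.3 (NGO, 24.0 to 24.7), 28.0 (GO1, 27.7 to 28.3), 33.8 (GO2, 33.6 to 34.1) and 29.9 (FGO, 29.5 to 30.2), a highest value 1.39 times the lowest. Chd9 (chromosome 8 from 90828835 to 91054508, plus strand) spanned 2.65 times, with 10.6 (NGO, 10.5 to 10.8), 28.2 (GO1, 28.0 to 28.5), 21.3 (GO2, 21.1 to 21.5) and 16.5 (FGO, 16.3 to 16.7). Chd1 (chromosome 17 from 15704967 to 15772610, plus strand), which binds methylated H3K4 at active genes, was low throughout. It stood at 2.61 (NGO, 2.50 to 2.71), 4.98 (GO1, 4.85 to 5.11), 4.61 (GO2, 4.52 to 4.71) and 2.62 (FGO, 2.52 to 2.72), so the dUTP libraries of NGOs and FGOs could not be told apart for this gene.

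Ino80 (chromosome 2 from 119373042 to 119477687, minus strand) encodes the ATPase of the INO80 complex, which acts on nucleosomes with the variant histone H2A.Z. It had 3.38 (NGO, 3.25 to 3.51), 6.41 (GO1, 6.24 to 6.58), 7.48 (GO2, 7.35 to 7.62) and 6.74 (FGO, 6.56 to 6.92). NGOs stood apart as the low library, and the GO1 and FGO intervals overlap.

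Hells (chromosome 19 from 38930915 to 38971051, plus strand) had 9.02 (NGO, 8.82 to 9.24), 16.6 (GO1, 16.4 to 16.9), 15.4 (GO2, 15.2 to 15.5) and 12.0 (FGO, 11.8 to 12.3). Atrx (chromosome X from 105797615 to 105929397, minus strand), which loads histone H3.3 together with DAXX, had the widest span of the 10 genes, 3.16 times. Its values were 16.5 (NGO, 16.4 to 16.7), 52.3 (GO1, 52.0 to 52.6), 40.7 (GO2, 40.5 to 40.9) and 21.2 (FGO, 21 to 21.5). Both genes were highest in GO1 and lowest in NGOs.

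The RPKM in GO1 and in GO2 lay above that in both NGOs and FGOs for 6 of the 10 genes (Hells, Smarca2, Smarca5, Chd1, Chd9 and Atrx), against 21.4 % of the 16669 genes with at least 20 counts over the libraries. It lay below both for 1 gene, Smarcb1, against 29.7 % of the same genes. Levels above both were not particular to the 10 genes. Among partners of ISWI ATPases, Baz1a, Baz1b, Baz2a, Baz2b, Bptf, Rsf1 and Cecr2 had them, while Pole3 and Chrac1 did not. Of the other SNF2-family ATPases listed below, Smarca1, Smarcad1, Chd2, Chd6, Chd7, Ep400, Rad54b, Hltf and Shprh had them, and the rest did not. Genes of these lists are named here after their values were seen. The growing oocytes are also the libraries made with the ScriptSeq kit, and stage and protocol cannot be told apart here.

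To compare the start and the end of growth within the dUTP protocol, log2 changes from NGOs to FGOs were computed on counts recovered from the RPKM values and scaled between libraries. A gene was called at 2-fold or more. Of the 10 genes, 1 (Ino80) was called higher in FGOs, where 17.9 % of the 15256 genes compared were, and 0 were called lower, where 16.5 % were. With 10 genes these counts do not set the members apart from genes in general. No test was possible with 1 library per stage. Ino80 was 2.09-fold higher (2 to 2.19, or 1.90 to 2.30 with 4 counts per fragment), a log2 change of 1.07. This lies at the threshold, and without scaling beyond the deposited RPKM the call is lost. Smarca4 came closest to a call in the other direction, with a log2 change of -0.91 (-0.95 to -0.87), or 1.88-fold lower in FGOs, and it was called when libraries were scaled by their total counts on genes.

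The other 8 genes differed less. Chd9 had a log2 change of 0.71 (0.67 to 0.74), Hells of 0.49 (0.44 to 0.53), Atrx of 0.43 (0.41 to 0.45) and Chd4 of 0.36 (0.34 to 0.39). Smarcb1 had -0.44 (-0.49 to -0.39), Smarca2 -0.28 (-0.32 to -0.24) and Smarca5 -0.25 (-0.29 to -0.21). For Chd1 the change was 0.08 and its counting interval reached 0. The 3 SWI/SNF genes and Smarca5 had lower values in FGOs, and the other 6 genes had values at or above those of NGOs. The median change of the 10 genes was 0.22, beside 0.01 over all genes compared. A change of under 1.5-fold in either direction was found for 7 of the 10 genes and for 45.7 % of all genes compared.

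**Figure D2:**
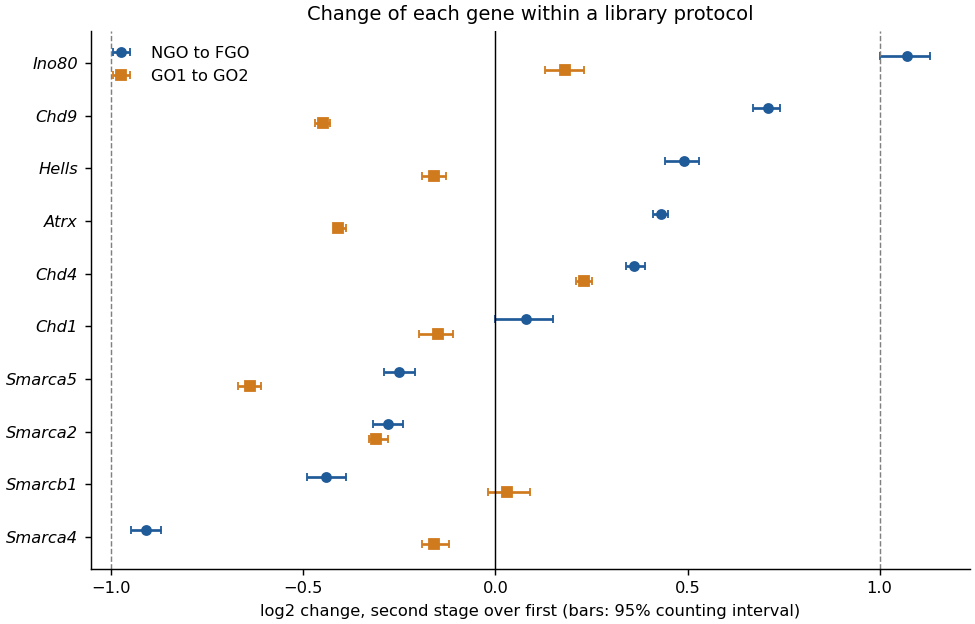
Log2 change (x axis, second stage over first) of each gene, sorted by the change from NGOs to FGOs (blue circles), with the change from GO1 to GO2 (orange squares), 95 % counting intervals, and dashed lines at 2-fold. Ino80 at 1.07 is the only point past a dashed line, and Smarca5 has the lowest change from GO1 to GO2 at -0.64.

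Within the ScriptSeq kit, from GO1 to GO2, 0 of the 10 genes were called in either direction, where 6.77 % of the 15737 genes compared were called higher in GO2 and 2.94 % lower. The libraries differed little in general, and 76.3 % of all genes compared and 9 of the 10 genes stayed within 1.5-fold. The exception was Smarca5, which was 1.56-fold lower in GO2, a log2 change of -0.64 (-0.67 to -0.61), a change lower than that of all but 8.25 % of the genes compared. Chd9 followed with -0.45 (-0.47 to -0.43), then Atrx with -0.41 (-0.42 to -0.39) and Smarca2 with -0.31 (-0.33 to -0.28). Hells and Smarca4 were each at -0.16 and Chd1 at -0.15. Only Chd4 with 0.23 (0.21 to 0.25), Ino80 with 0.18 (0.13 to 0.23) and Smarcb1 with 0.03 (-0.02 to 0.09) had positive values, and that of Smarcb1 was within counting error of 0. The median over the 10 genes was -0.16, beside 0.01 over all genes compared.

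The promoters of the genes with the largest changes and span were read from RefSeq (GRCm38.p6), which held a window of 300 bases, from 250 before to 50 after the start site, for 9 of the 10 genes. Chd1 had no entry. They are shown because the promoter of Atrx is unlike those of Ino80 and Smarca4. Capitals mark the CCAAT box (CCAAT) and the GC box (GGGCGG), searched on both strands, which do not overlap each other in these windows.
Ino80, chr2:119477638-119477937, minus strand: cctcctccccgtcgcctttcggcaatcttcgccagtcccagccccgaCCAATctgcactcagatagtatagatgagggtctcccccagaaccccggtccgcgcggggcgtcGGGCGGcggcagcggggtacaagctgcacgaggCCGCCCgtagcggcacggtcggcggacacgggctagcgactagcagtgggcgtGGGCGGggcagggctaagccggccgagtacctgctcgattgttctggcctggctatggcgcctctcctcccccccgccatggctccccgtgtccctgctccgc
Smarca4, chr9:21615919-21616218, plus strand: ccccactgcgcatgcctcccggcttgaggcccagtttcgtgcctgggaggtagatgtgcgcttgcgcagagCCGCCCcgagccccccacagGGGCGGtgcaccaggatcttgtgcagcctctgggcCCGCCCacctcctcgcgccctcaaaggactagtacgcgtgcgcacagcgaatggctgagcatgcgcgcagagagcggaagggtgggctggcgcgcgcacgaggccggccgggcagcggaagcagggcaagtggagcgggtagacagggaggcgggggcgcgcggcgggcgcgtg
Atrx, chrX:105929323-105929622, minus strand: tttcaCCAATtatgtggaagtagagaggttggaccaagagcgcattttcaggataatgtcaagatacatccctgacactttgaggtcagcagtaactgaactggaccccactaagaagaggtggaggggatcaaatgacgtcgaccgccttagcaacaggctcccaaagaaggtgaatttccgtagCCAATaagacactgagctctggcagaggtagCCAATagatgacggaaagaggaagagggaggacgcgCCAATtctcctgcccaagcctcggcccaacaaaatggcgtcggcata

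The Ino80 window held 32 CpG sites and that of Smarca4 33, at the 90.5 and 91.4 percentile of the 32851 RefSeq promoter windows, each with 3 GC boxes. The Atrx window held 11 CpG sites, at the 58.6 percentile, with 4 CCAAT boxes and 0 GC boxes. Over the 11 windows of the members the median was 29 CpG sites, beside 7 over all windows, with the lowest (1) at the downstream start site of Chd9 and the highest (34) at Hells. A GC box was found at 8 of the 9 genes and in 35.7 % of all windows, a CCAAT box at 3 of the 9 genes and in 37.4 % of all windows, and the TATA box letters (TATAAA) at 0 of the 9 genes and in 13.6 % of all windows. These are matches of letters and not sites of binding. A gene was counted if any of its windows held a match, and Chd4 and Chd9 have more than 1 window. The shares of all windows are per window instead. All RefSeq windows were taken for the background, whether or not their genes were read in these libraries.

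Several members have a close paralog, and the share of a paralog within a library does not depend on the scaling between libraries. Smarca4 made up 58.4 % (Wilson 57.8 to 59.0 %) of the summed RPKM of Smarca2 and Smarca4 in NGOs. The share was 38.2 % (GO1, 37.7 to 38.7 %), 40.7 % (GO2, 40.3 to 41.1 %) and 47.5 % (FGO, 46.8 to 48.3 %) in the other libraries. With 4 counts per fragment the intervals were 57.2 to 59.5 % for NGOs and 46.1 to 49 % for FGOs. Smarca4 was thus the larger part in NGOs and Smarca2 in the other libraries, and within the dUTP protocol the share of Smarca4 was lower in FGOs. For the shares in GO1 and GO2 against those in NGOs and FGOs, stage and protocol cannot be told apart. The sum of both was 33.6 (NGO), 39.1 (GO1), 33.9 (GO2) and 21 (FGO).

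In the other pairs a single gene dominated. Smarca5 made up 98 to 99 % of the sum of the ISWI pair, as Smarca1, its paralog SNF2L, stayed between 0.124 and 0.222. Chd4 made up 93.9 % (93.6 to 94.2 %) of the pair with Chd3, the alternative NuRD ATPase, in NGOs, 94.9 % in GO1, 95.9 % in GO2 and 96.2 % (96.0 to 96.4 %) in FGOs. Chd3 itself went from 1.58 in NGOs to 1.49, 1.44 and 1.18 at the later stages. Chd2 was the minor partner of Chd1, with 19.5 % (18.2 to 20.9 %) of the sum in NGOs, 14.2 % in GO1, 12.4 % in GO2 and 14.9 % (13.8 to 16.2 %) in FGOs.

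**Figure D3:**
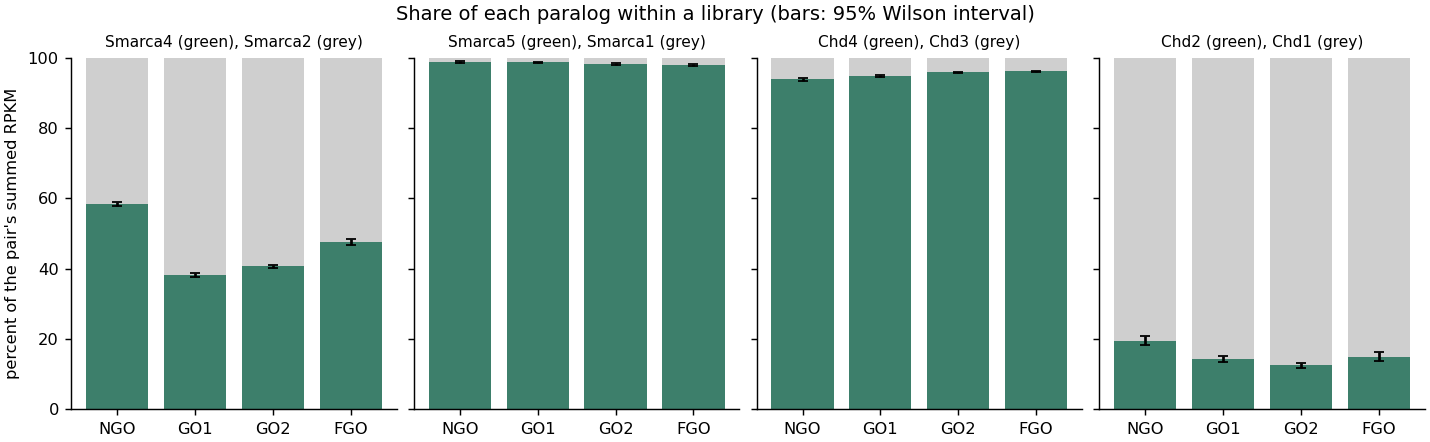
Percent of the summed RPKM of a paralog pair (y axis, from 0) that belongs to the gene drawn in green, in each library (x axis), with 95 % Wilson intervals for counting error. Within the dUTP protocol Smarca4 made up 58.4 % in NGOs and 47.5 % in FGOs, whereas Smarca5 and Chd4 stayed above 93 % in every library. Between dUTP and ScriptSeq libraries stage and protocol cannot be told apart.

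The wider remodelling machinery was described by lists of further genes. Of 23 other SNF2-family ATPases, 22 were in the table and had at least 20 counts in each pair. From NGOs to FGOs, 1 was called higher and 0 lower, beside 17.9 % and 16.5 % of all genes. That gene was Chd5, a CHD paralog known mainly from neurons and testis, which had 0.160 (NGO), 1.12 (GO1), 1.53 (GO2) and 1.83 (FGO). It was 11.9-fold higher in FGOs, a log2 change of 3.57 (3.35 to 3.80), and so far outside the range of the 10 genes. Next came Hltf with 0.91 (0.83 to 0.99), while Chd1l (-0.55) and Srcap (-0.50) were lowest. From GO1 to GO2, Srcap, the ATPase that loads H2A.Z, was the 1 gene called lower (2.94 % of all genes), from 8.80 to 4.40, a log2 change of -1.04 (-1.10 to -0.99), while Chd8 stood at -0.44 and Zranb3 (0.52) and Chd5 (0.40) were the highest. The medians of the list were 0.27 and -0.09, and over the 10 genes they were 0.22 and -0.16.

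Of 29 names of BAF and PBAF subunits, 26 were in the table and 24 had enough counts from NGOs to FGOs. Of these, 1 was called higher (Bcl11b) and 4 lower (Dpf3, Smarcd1, Bcl7a and Smarcd3), beside 17.9 % higher and 16.5 % lower of all genes compared, so the lower share was near the background. The median was 0.07. Dpf3, which reads acetylated histones, was at 21.5 (NGO), 18.6 (GO1), 13.3 (GO2) and 7.32 (FGO), a log2 change of -1.48 (-1.54 to -1.43). It was higher in NGOs than Smarca4 itself. Smarcd1 had 3.52 in NGOs and 1.25 in FGOs (-1.42). Bcl7a had 2.80 and 1.28 (-1.06), whereas Smarcd3 (0.0617 and 0.0257) and Bcl11b (0.0234 and 0.0567) had few counts, and these 3 were named after their values were seen. Bcl7c (0.84) and Ss18 (0.47) had the largest positive changes among genes with 100 or more counts. From GO1 to GO2, 0 of 25 were called, beside 6.77 % higher and 2.94 % lower of all genes compared. Among genes with 100 or more counts the extremes were Gltscr1 (-0.82), Pbrm1 (-0.70), Ss18l1 (0.13) and Bcl7c (0.43), and the median of the list was -0.15.

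All 12 NuRD subunits had enough counts, and from NGOs to FGOs 0 were called higher and 2 lower, beside 17.9 % and 16.5 % of all genes compared, so the lower share was near the background. The median of -0.41 was the lowest of the lists. The deacetylase gene Hdac1 had 0.682 (NGO), 1.42 (GO1), 0.956 (GO2) and 0.153 (FGO), a log2 change of -2.07 (-2.47 to -1.68). Its paralog Hdac2, with 17.6, 19.5, 15.9 and 13.9, was the larger in every library. Cdk2ap1, like Hdac2 named after its values were seen, had 0.242 in NGOs and 0.0988 in FGOs (-1.19). The call of Cdk2ap1 rests on few counts, 52 in NGOs and 23 in FGOs. The histone chaperone gene Rbbp7 was the highest of the list in this pair, with 124 in NGOs and 169 in FGOs (0.51), Gatad2b followed (0.41), and Mbd2 had -0.88. From GO1 to GO2, 0 of the 12 were called, beside 6.77 % higher and 2.94 % lower of all genes compared. Hdac1 (-0.61) and Rbbp4 (-0.54) were lowest and Mbd2 (0.39) and Gatad2a (0.01) highest. Chd4 thus had a positive change in both pairs, while 3 of the 12 subunits did from NGOs to FGOs and 2 of the 12 did in growing oocytes.

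Partners of ISWI ATPases (SMARCA5 or its paralog SMARCA1), 9 genes, had 0 calls in either pair, with medians of 0.13 and -0.19. From NGOs to FGOs 17.9 % of all genes compared were called higher and 16.5 % lower. From GO1 to GO2 these shares were 6.77 % and 2.94 %. In the dUTP pair the extremes were Chrac1 (-0.70), Baz1a (-0.40), Baz2b (0.47) and Bptf (0.52), and from GO1 to GO2 all 9 had a negative change, Baz1a (-0.49) and Baz2a (-0.41) the lowest. Of 26 subunits of the INO80, SRCAP and TIP60 complexes, 25 were in the table. In either pair 0 of them were called, beside the same shares of all genes, with medians of -0.18 and -0.04. Ino80 with a log2 change of 1.07 thus lay above all 25 from NGOs to FGOs. Among those with 100 or more counts Epc2 (0.86) and Tfpt (0.62) were the highest, and Znhit1 (-0.67) and Trrap (-0.60) the lowest. From GO1 to GO2 Mcrs1 (0.53) and Ruvbl2 (0.33) were highest, and Ino80d (-0.68) and Yy1 (-0.43) lowest.

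Of the partners of HELLS and ATRX, Daxx, the H3.3 chaperone that works with ATRX, had 7.07 in NGOs and 10.7 in FGOs, a log2 change of 0.67 (0.60 to 0.74), and 0.27 from GO1 to GO2. Cdca7, whose product recruits HELLS, had 5.82 in NGOs and 5.51 in FGOs (-0.01) and -0.13 from GO1 to GO2. Cdca7l had 7.35 and 7.79 (0.15) and 0.04. None of the 3 was called in either pair. Among all genes compared, 17.9 % were called higher and 16.5 % lower from NGOs to FGOs. For GO1 to GO2 the shares were 6.77 % and 2.94 %.

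**Figure D4:**
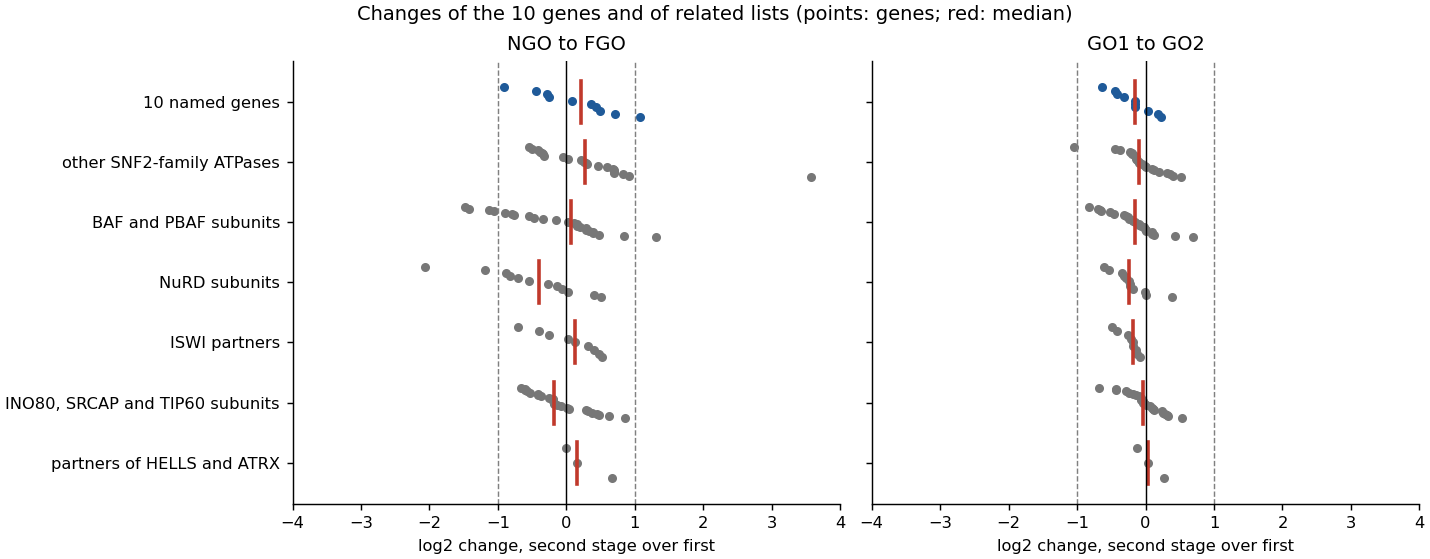
Log2 change (x axis, second stage over first) for NGOs against FGOs (left) and GO1 against GO2 (right) of the 10 genes (blue) and of the related lists (grey), 1 point per gene of 20 or more counts over both libraries, the median in red and dashed lines at 2-fold. Chd5 at 3.57 and Hdac1 at -2.07 are the farthest points from NGOs to FGOs, while in the ScriptSeq pair only Srcap lies past 2-fold.

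The genes with the profile most like those of the members with the widest span were looked up among 10749 genes (100 or more counts in each of the libraries), by the Euclidean distance of log2(RPKM + 0.1) centred over the 4 libraries. Nearest to Atrx were Runx1t1 (distance 0.0274), with 2.22 (NGO), 7.02 (GO1), 5.54 (GO2) and 2.87 (FGO), then Gm12588 (0.0473) and Glcci1 (0.0538). Nearest to Chd9 were Insm1 (0.0542), with 5.55, 14.6, 11 and 8.92, then Ccdc47 (0.0747) and Zfp319 (0.0760). With 4 values per gene this likeness is a description of these libraries. The profiles cover both protocols, so stage and protocol cannot be told apart in them.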

How the data were processed

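The RNA-Seq table covers the 4 oocyte stages with 1 library each. The authors trimmed reads with Trim Galore 0.2.8, mapped them to GRCm38 with TopHat2 2.0.9 and deposited RPKM values on a linear scale. The counting program, annotation and strand setting of the table are not given in the sources used here. Counts were recovered with GENCODE M21: genes with 1 exon gave each library total, with at least 99.45 % of values whole within 0.05, and other genes were given a length that made all counts whole (exon union for 7 members, a transcript length for Chd9, the smallest fitting length for Smarca2 and Atrx). Changes are log2 ratios of these counts, scaled between libraries by trimmed log ratios (30 % of ratios and 5 % of mean expression removed at each end) with a prior count of 1, for genes reaching 20 counts over both libraries, and were called at 2-fold. The fits were tested on simulated data. Single levels carry Poisson intervals and shares Wilson intervals at 95 %. Without molecular identifiers, reads need not be independent molecules. The recovered counts are units of the authors' quantification, more numerous than the sequenced fragments, so intervals built on them are too narrow, and count minimums are in the same unit. No spread between oocyte samples could be measured. Members and lists were chosen with earlier results of these data known. From each list the 2 largest rises and falls per pair were named, given 100 counts or more in the higher library, as were all members, their paralogs and the 3 nearest genes to 2 members. Alternatives were other scalings, prior counts, thresholds, filters and lengths. Python 3.11.15, numpy 2.4.6, pandas 2.3.3, scipy 1.17.1 and matplotlib 3.10.9 were used.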

Additional observations from a re-analysis of the deposited data

How the results depend on the processing

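No paired analysis was possible because each stage has 1 library, and for the same reason no replicate could be left out. The count of genes called higher in FGOs than in NGOs, 1 (Ino80), became 0 without scaling beyond the deposited RPKM, 0 with scaling by total counts on genes, 0 at a threshold of 4-fold and 2 at 1.5-fold. The count called lower, 0, became 1 (Smarca4) with scaling by total counts on genes and 1 at 1.5-fold. The count called lower in GO2 than in GO1, 0, became 1 (Smarca5) at 1.5-fold. The median change of 0.22 from NGOs to FGOs became 0.15 without further scaling and 0.10 with total counts on genes, and the median of -0.16 from GO1 to GO2 became -0.11 and -0.07. Scaling by total counts on genes moved all changes by -0.12 from NGOs to FGOs. Of 120 values of single genes under the alternatives, 81 stayed within the counting interval, 39 moved by at most 0.12, and 1 had another sign. Of 160 percentiles of levels, 157 moved. The share of Smarca4 in the pair with Smarca2 was lower in every library when counts were not divided by length, at 53.6 %, 33.7 %, 36.1 % and 42.8 % in NGOs, GO1, GO2 and FGOs, and at 51.8 %, 32.1 %, 34.4 % and 41.0 % with the longest coding transcripts, a length chosen after seeing the data. All 10 genes lay above the median level of each library under the alternatives run, except that 9 did in NGOs when only genes with 3 or more counts in all 4 libraries were ranked, where Chd1 was at the 49.3 percentile. With 4 counts per fragment, chosen after seeing the data, intervals widened, overlapping neighbours went from 3 to 4, and Chd1 (NGOs to FGOs) and Smarcb1 (GO1 to GO2) were again the changes whose interval reached 0.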
